A study of Rattus norvegicus with 9 samples.

Results

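The genes described here carry the steps by which a pancreatic beta cell turns a rise in blood glucose into electrical activity and calcium entry. They were chosen by function, as 6 named genes of 14217 genes that the array annotation names by a single symbol: Slc2a2, G6pc2, Abcc8, Kcnj11, Cacna1c and Cacna1d. A probe set, the group of short probes that together measure 1 transcript, was taken for a gene only where the platform annotation gave that symbol and no other. This gave 10 probe sets for 5 of the 6 genes. G6pc2 was not analysed here, since no probe set was matched to it. The brightest probe set of a gene, by its mean over the 9 arrays, served as its main one, and the others are given beside it. Levels are not compared between genes, since each probe set binds with its own strength.

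Islets, which hold the endocrine cells of the pancreas, came from male Wistar rats that were 7 weeks old and weighed 225 to 250 g when the diets began, and were housed singly. For 30 days the standard group ate chow with 8% of its calories as fat, and the cafeteria group ate a cafeteria diet with 66%. Islets were freed with collagenase, purified on a density gradient and picked by hand, and their RNA was measured on Affymetrix Rat Genome 230 2.0 arrays. The 9 arrays analysed here, 4 standard and 5 cafeteria, are labelled as separate biological replicates; a further standard array named in the design text was not analysed here. Each array was placed by its title. For all 9, a separate label entry for diet names the opposite group; taking that entry instead would turn the sign of each difference below and leave its size and p-value as they are.

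In the beta cell, glucose enters through a facilitative transporter and is phosphorylated, while a glucose 6-phosphatase of the endoplasmic reticulum works against that step. The ATP made from glucose closes ATP-sensitive potassium (KATP) channels, which sets off depolarisation. Voltage-gated L-type calcium channels then open, and the calcium that enters triggers the release of insulin granules. Each KATP channel joins a pore subunit, Kir6.2, which Kcnj11 encodes, with the sulfonylurea receptor SUR1, which Abcc8 encodes. Kcnj11 and Abcc8 are neighbouring genes in the GRCr8 rat assembly.

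The preparations carried strong beta cell signals. Of 9 beta cell markers, 7 had a named probe set and all 7 passed the filter on dim probe sets, with a summed signal of 94739 to 138560 on standard arrays and 107390 to 148650 on cafeteria arrays. Markers of other cells were also present. The summed signal of 9 acinar markers was 3152 to 8734 on standard and 2558 to 9367 on cafeteria arrays; 8 of the 9 were higher in cafeteria islets, with a median log2 fold of 0.49. All 4 endothelial markers tested were lower, with a median of -0.32. The summed signal of 7 macrophage markers was 4687 to 8938 on standard and 2822 to 4283 on cafeteria arrays. The diets did not overlap in this sum. Cd74, with means of 4412 and 2168, made up most of it, which was looked at after the values were seen. All 6 macrophage markers tested were lower, with a median log2 fold of -0.22. These were Cd74 at -0.95, C1qc at -0.59, Csf1r at -0.30, C1qb at -0.14, C1qa at -0.10 and Cd68 at -0.0039. Aif1 lay below the filter. The sum of 5 lymphocyte markers was 623 to 2660 on standard and 425 to 587 on cafeteria arrays, and the diets did not overlap in it either. None of the markers of any list passed the adjusted test in limma, and their part in the values below was not tested. The 3 Schwann cell markers with a probe set all lay below the filter. Islet RNA mixes these cells, so fewer cells of a type and less RNA per cell cannot be told apart.

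None of the 5 measured genes passed the test for a difference between the diets. Of the 10 probe sets, 8 passed the filter (the 40th percentile of mean signal, about 91.1) and were tested in limma together with all others. The log2 folds of cafeteria over standard were 0.09 for Slc2a2, -0.22 for Abcc8, -0.02 for Kcnj11, -0.21 for Cacna1c and 0.04 for Cacna1d, on the scale of log2(signal + 16), which understates the change of dim genes. None of the 8 passed limma's adjusted threshold, and 0% of the 18625 probe sets tested did. None of the 8 had an unadjusted p under 0.05 either, where 1080 of the probe sets tested, 5.80%, did (3.01% higher and 2.79% lower in cafeteria islets). The diets overlapped for all 8; over all probe sets tested, 1.76% had groups that did not overlap.

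**Figure D1:**
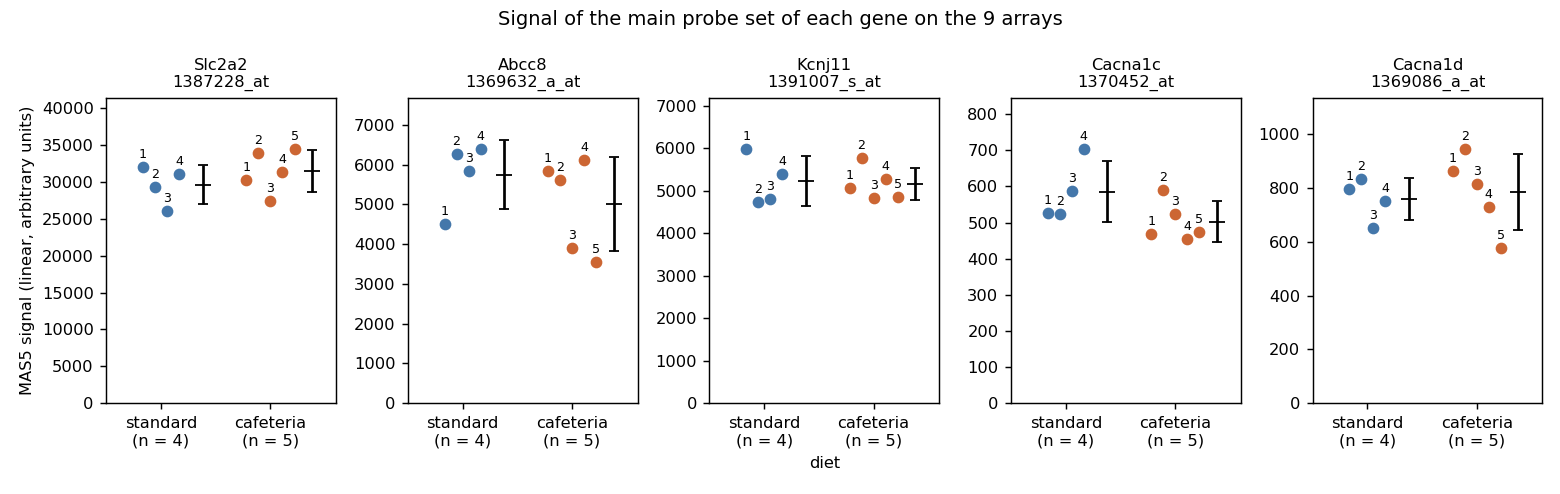
MAS5 signal (linear, arbitrary units) of the main probe set of Slc2a2, Abcc8, Kcnj11, Cacna1c and Cacna1d on each array, by diet; points are arrays numbered by replicate, and the bars beside them give the mean and SD (standard n = 4, cafeteria n = 5). The diets overlap in every panel, and Abcc8 lies lowest on cafeteria replicates 5 and 3 and standard replicate 1.

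Slc2a2 encodes GLUT2, the glucose transporter of the rodent beta cell. Its signal was 32062, 29329, 26002 and 31034 on standard replicates 1 to 4. On cafeteria replicates 1 to 5 it was 30255, 33968, 27413, 31293 and 34485. The diets overlapped: cafeteria replicates 2 and 5 lay above every standard array, and the lowest value of all was that of standard replicate 3. Group means were 29607 ± 2654 (SD, n = 4) and 31483 ± 2885 (SD, n = 5), a fold of 1.06 with a 95% interval of 0.917 to 1.23. The log2 fold was 0.09 ± 0.10 (SE), with an adjusted p of 0.910 in limma and a p of 0.365 in a two-sided exact permutation test over the 126 ways to divide the arrays into 4 and 5, whose smallest possible p is 0.0079.

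Slc2a2 varied little between arrays. Its SD within diets was 0.13 on the log2 scale, at the 9.3rd percentile of the probe sets tested, whose median was 0.26. Its signal ranked between 16 and 26 from the top on every array, near the highest signals of the arrays, which were 46683 to 72297. Whether a signal this bright shows a difference in full was not tested.

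Abcc8 encodes SUR1, the subunit that binds sulfonylureas and magnesium nucleotides. On standard replicates 1 to 4 the signal was 4504, 6267, 5827 and 6395. On cafeteria replicates 1 to 5 it was 5826, 5616, 3914, 6104 and 3556. Cafeteria replicates 3 and 5 lay below every standard array, and standard replicate 1 was the next lowest; the other 6 arrays kept to a narrow band. Group means were 5748 ± 865 (SD, n = 4) and 5003 ± 1177 (SD, n = 5), a fold of 0.858 with a 95% interval of 0.664 to 1.11. The log2 fold of -0.22 ± 0.17 (SE) did not pass (limma adjusted p = 0.866, exact permutation p = 0.294).

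Kcnj11 encodes Kir6.2, the pore of the KATP channel, and had 3 probe sets, which differed in how they varied between arrays. The main one, 1391007_s_at, gave 5986, 4732, 4814 and 5392 on standard replicates 1 to 4. It gave 5065, 5772, 4832, 5270 and 4851 on cafeteria replicates 1 to 5. All cafeteria values of this probe set lay within the standard range. The fold was 0.988 with a 95% interval of 0.850 to 1.15, and the log2 fold was -0.02 ± 0.10 (SE; limma adjusted p = 0.989, exact permutation p = 0.849). Its suffix (_s_at) marks, in the array maker's naming, a probe set whose probes can match transcripts of more than 1 gene.

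The probe set 1387698_at of Kcnj11 gave 2332, 3787, 3483 and 2953 on standard replicates 1 to 4. It gave 3320, 2579, 1622, 2737 and 2373 on cafeteria replicates 1 to 5. Here cafeteria replicate 3 lay below all standard arrays, and the lowest standard value was that of replicate 1. Its log2 fold was -0.33 ± 0.19 (SE; limma adjusted p = 0.859), and -0.46 to -0.18 with each array left out, lowest without standard replicate 1 and nearest 0 without cafeteria replicate 3. The probe set 1369782_a_at gave 766, 1169, 938 and 912 on the standard arrays, against 1098, 932, 661, 948 and 540 on the cafeteria arrays. Cafeteria replicates 3 and 5 were again the lowest and standard replicate 1 the next, and the log2 fold was -0.21 ± 0.20 (SE; limma adjusted p = 0.885).

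The differences among the 3 Kcnj11 log2 folds were tested per array, a test added after the values had been seen. The fold of 1387698_at minus that of the main probe set was -0.31 (exact permutation p = 0.302), and that of 1369782_a_at minus the main one was -0.19 (p = 0.468 by the same exact test). That of 1369782_a_at minus 1387698_at was 0.12 (p = 0.5 by the same exact test). The adjusted p of all 3 was 0.5, over these and a comparison of the Cacna1c probe sets that is not used, since 1 of them passed the filter only through its cafeteria values. The diet difference of Abcc8 minus that of the main Kcnj11 probe set was -0.20 on the log2 scale (exact permutation p = 0.341), so a difference in response between the channel's subunits was not shown.

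**Figure D2:**
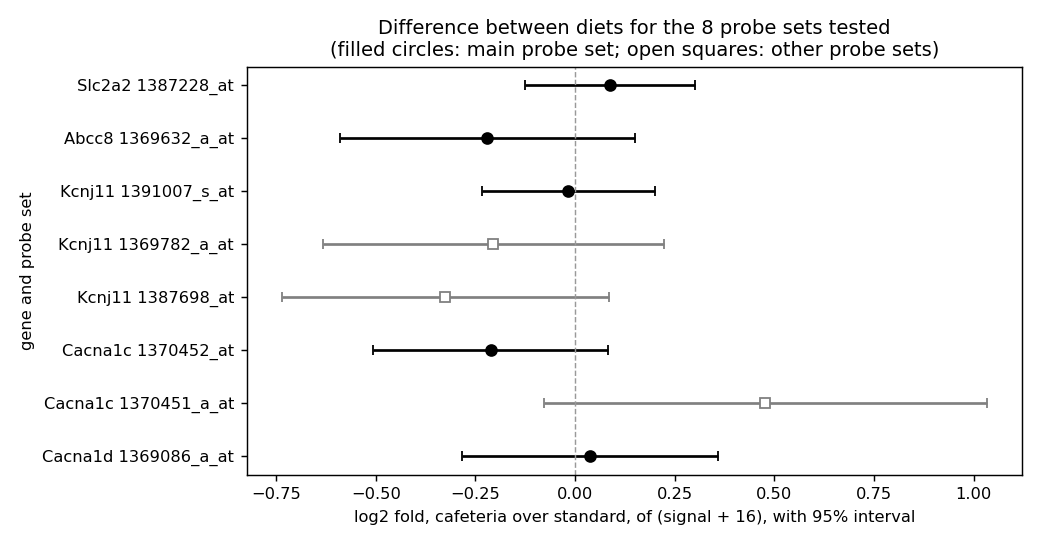
Log2 fold of cafeteria over standard signal, with its 95% interval from limma, for the 8 probe sets tested; filled circles are main probe sets and open squares the others. All 8 intervals include 0, and the widest is that of the dim Cacna1c probe set 1370451_a_at, at 0.48, whose standard mean lies below the filter.

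The low values of the KATP genes fell on the same arrays. The ratio of the beta-actin control signal at the 3' end of its transcript to that at the 5' end, a measure of how complete the RNA and its labelled copies were, was 4.59 to 5.63 on standard replicate 1 and cafeteria replicates 3 and 5, and 2.79 to 3.82 on the other 6. The same ratio for the GAPDH control did not set these 3 arrays apart: it was 1.64, 1.53 and 1.62 on them and 1.29 to 1.596 on the 6, where standard replicate 2 had the highest ratio and the highest signals of the Kcnj11 probe sets 1387698_at and 1369782_a_at. Abcc8 was 3556 to 4504 on those 3 arrays and 5616 to 6395 on the 6. The Kcnj11 probe set 1369782_a_at was 540 to 766 against 912 to 1169, and 1387698_at was 1622 to 2373 against 2579 to 3787. These 3 probe sets were lower on each of the 3 arrays than on any of the 6, by 0.59, 0.60 and 0.58 on the log2 scale, as were 1331 of the 18625 probe sets tested, 7.15%. The main Kcnj11 probe set, Slc2a2, Cacna1c and Cacna1d overlapped between these arrays. The arrays were set apart by their control ratio after the data had been seen. With the beta-actin ratio as a covariate in limma, the residual SD of Abcc8 was 0.17 on the log2 scale, against 0.31 without it. The residual SD was 0.21 against 0.35 for 1387698_at and 0.26 against 0.35 for 1369782_a_at. For the main Kcnj11 probe set it was 0.14 against 0.13. Whether the state of the RNA that this ratio measures caused the low Abcc8 and Kcnj11 values was not tested.

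Within the 6 arrays of lower ratio, 3 of each diet, no relation among the KATP signals passed. Pearson's r of Abcc8 with the Kcnj11 probe set 1369782_a_at was 0.15 (exact permutation p = 0.731), and Spearman's rho was -0.03 (exact permutation p = 1.00). With 1387698_at r was 0.28 (exact permutation p = 0.588; rho = 0.37, p = 0.497). With the main probe set it was -0.29 (exact permutation p = 0.565; rho = -0.26, p = 0.658). Over the 7 relations computed among these arrays, 4 of them with the beta-actin ratio, the adjusted p of r was 0.963 at the lowest. Since the arrays fall into 2 separate sets in Abcc8, no r between KATP probe sets over all 9 is printed. The pairs of main probe sets tested below over all 9 arrays do include Abcc8 with Kcnj11.

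The log2 folds between diets were also computed within the 6 arrays. For Abcc8 the fold there was -0.08 with a 95% interval of -0.26 to 0.11 (limma adjusted p = 0.938), against -0.22 over all 9. For the Kcnj11 probe set 1369782_a_at it was -0.01, against -0.21, and for 1387698_at it was -0.24, against -0.33. For the main Kcnj11 probe set it was 0.11, of opposite sign to the value over 9 arrays. The other 3 genes kept their sign, with 0.15 for Slc2a2, -0.25 for Cacna1c and 0.18 for Cacna1d, and none of these passed. With 3 arrays of each diet an exact permutation test cannot go below 0.1, and whether these folds differ from those over 9 arrays was not tested. Leaving out another set of 3 arrays that earlier results had put in doubt, standard replicates 1 and 3 and cafeteria replicate 3, gave Abcc8 a log2 fold of -0.29, so the value for Abcc8 moved in opposite directions with the arrays left out.

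**Figure D3:**
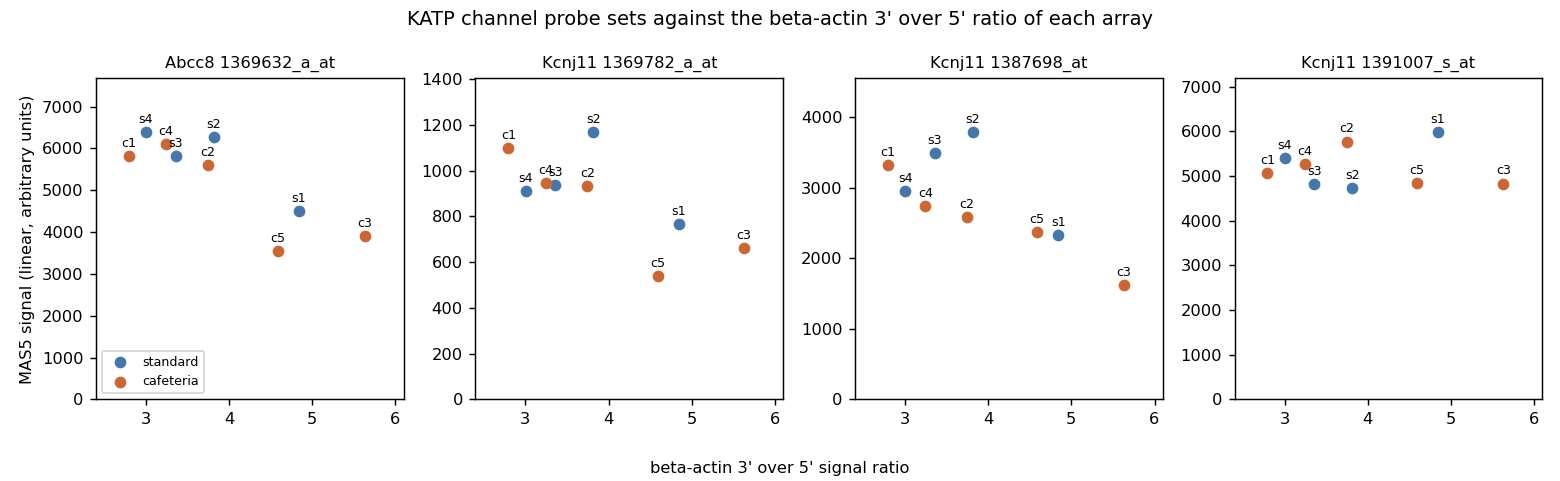
MAS5 signal (linear, arbitrary units) of Abcc8 and of the 3 Kcnj11 probe sets against the ratio of the 3' to the 5' beta-actin control signal; points are arrays, with s and c for standard and cafeteria and the replicate number. The 3 arrays with ratios of 4.59 to 5.63 have the lowest signals in the first 3 panels; in the last, for 1391007_s_at, standard replicate 1 is the highest and the other two lie within the range of the rest.

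The L-type calcium channels pass the current that triggers secretion, and Cacna1c and Cacna1d encode their pore-forming subunits Cav1.2 and Cav1.3. The main Cacna1c probe set, 1370452_at, gave 527, 524, 589 and 704 on standard replicates 1 to 4. It gave 469, 590, 525, 454 and 473 on cafeteria replicates 1 to 5. Cafeteria replicates 1, 4 and 5 lay below every standard array, while cafeteria replicate 2 reached the second highest value of all. Group means were 586 ± 84.1 (SD, n = 4) and 502 ± 56.0 (SD, n = 5), a fold of 0.863 with a 95% interval of 0.704 to 1.06. The log2 fold of -0.21 ± 0.14 (SE) did not pass (limma adjusted p = 0.859), and its exact permutation p was 0.0952, the lowest of the 5 genes.

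The second Cacna1c probe set, 1370451_a_at, was dim. Its mean was 74.9 ± 21.2 (SD, n = 4) on standard and 112 ± 34.2 (SD, n = 5) on cafeteria arrays, so it passed the filter of about 91.1 only through its cafeteria values, which favours a positive fold. It gave 56.4, 105, 67.5 and 70.5 on the standard arrays and 86.5, 164, 126, 79.5 and 102 on the cafeteria arrays. Cafeteria replicates 2 and 3 lay above every standard array, and standard replicate 2 lay among the cafeteria values. Its log2 fold of 0.48 is given as a description, and no direction is drawn from it or from its difference to the main probe set. It fell below the filter when standard replicate 2 or cafeteria replicate 1, 2, 3 or 5 was left out, and within the 6 arrays of lower beta-actin ratio. Cav1.2 is also a channel of smooth muscle, and the summed signal of 3 smooth muscle markers was 1179 to 2561 on standard and 874 to 1643 on cafeteria arrays; its part in the Cacna1c signal was not tested.

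The main Cacna1d probe set, 1369086_a_at, gave 796, 832, 652 and 752 on standard replicates 1 to 4. It gave 861, 946, 816, 728 and 577 on cafeteria replicates 1 to 5. Cafeteria arrays held both the highest and the lowest signals, with replicates 1 and 2 above and replicate 5 below every standard array. Group means were 758 ± 77.8 (SD, n = 4) and 786 ± 140 (SD, n = 5), a fold of 1.03 with a 95% interval of 0.822 to 1.28. The log2 fold was 0.04 ± 0.15 (SE; limma adjusted p = 0.978, exact permutation p = 0.810). The other Cacna1d probe sets, 1370637_at and 1370640_a_at, gave 28.6 to 91.4 and 4.00 to 22.6 over the 9 arrays, both under the filter, and were not tested. The diet difference of Cacna1d minus that of Cacna1c, main probe sets, was 0.25 on the log2 scale (exact permutation p = 0.151, and 0.302 adjusted over this and the Abcc8 and Kcnj11 comparison).

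The main probe sets of the 5 genes were also set against each other across arrays. Over the 10 pairs, no Pearson or Spearman correlation passed after adjustment (lowest adjusted p = 0.884 and 0.589 by exact permutation). The closest pair was Slc2a2 and the main Kcnj11 probe set, with r = 0.55 (exact permutation p = 0.124) and rho = 0.67 (exact permutation p = 0.0589), and r = 0.34 without standard replicate 3 and cafeteria replicate 3. The SD within diets was 0.13 for the main Kcnj11 probe set, 0.17 for Cacna1c, 0.22 for Cacna1d and 0.31 for Abcc8 on the log2 scale. By main probe sets Abcc8, at the 64.6th percentile of the probe sets tested, was the most variable of the 5 between arrays. The Kcnj11 probe sets 1369782_a_at and 1387698_at and the dim Cacna1c probe set 1370451_a_at each had a larger SD, of 0.35.

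For each gene, the patterns most like it over the 9 arrays were found by Pearson's r of log2 values among the main probe sets of 10346 other genes. For Slc2a2 they were Slc38a5, a glutamine transporter, at 0.96 and Ccdc191 at 0.96. For Abcc8 they were Kcnj5, which encodes the G protein-gated potassium channel subunit GIRK4, at 0.98 and Drd2, a dopamine receptor, at 0.96; both were lowest on standard replicate 1 and cafeteria replicates 3 and 5, and over the 6 other arrays r was 0.85 and 0.56. For the main Kcnj11 probe set they were Mettl8 at 0.96 and Mapkapk5 at 0.93. Cacna1c was closest to Sart3 at 0.92 and Luzp1 at 0.90, and Cacna1d to Mok at 0.91 and Ift43 at 0.91. These are the highest of many values over the same 9 arrays, which all come from the 2 diets, and they are given as a description.

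The other genes of glucose entry and excitability were described from 5 lists of 81 symbols in all, of which 66 had a named probe set and 50 passed the filter. Of these 50 genes, 24 were higher and 26 lower in cafeteria islets, and none passed limma's adjusted test in either direction. An unadjusted p under 0.05 was seen for 1 higher and 1 lower gene, 4% of the 50, where 669 of the 10347 genes tested with 1 probe set each, 6.47%, had one; whether these shares differ was not tested. List medians lay between -0.06 and 0.02 on the log2 scale, and the median over the 10347 genes tested was -0.0019.

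Potassium channels repolarise the cell or hold it at rest. The list of potassium channel genes other than Kcnj11 and Abcc8 gave both genes with an unadjusted p under 0.05 in limma. It also holds the KATP subunit genes Kcnj8 and Abcc9. Of 12 tested, 7 were higher and 5 lower. Kcnma1, the large-conductance calcium-activated channel, had a signal of 7066 to 7974 on standard arrays and 7586 to 10695 on cafeteria arrays, with 4 of 5 cafeteria arrays above every standard one. Its log2 fold was 0.32 ± 0.10 (SE; limma adjusted p = 0.839). Kcnk3, the leak channel TASK-1, had -0.50 ± 0.22 (SE; limma adjusted p = 0.839), with 828 to 1766 against 564 to 1133; 1 cafeteria array lay below every standard one. Kcnh2, a repolarising channel of the ERG family, had -0.46 ± 0.27 and did not pass.

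Among 7 tested calcium channel subunits other than Cacna1c and Cacna1d, 2 were higher and 5 lower. The auxiliary beta subunits shape the opening of the pore. Cacnb2 had -0.06 ± 0.11 (SE), and Cacnb3 had -0.65 ± 0.30 with signals of 865 to 2382 on standard and 655 to 1697 on cafeteria arrays. Cacna1a, the pore of P/Q-type channels, had -0.09 ± 0.24, the T-type gene Cacna1h had -0.20 ± 0.20 and the N-type gene Cacna1b had 0.14 ± 0.19. None of the 7 passed (lowest limma adjusted p = 0.839).

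The list for glucose entry and phosphorylation also holds G6pc3, Slc37a4 and Pfkfb2, which carry out neither step. Of its 6 tested genes, 1 (Pfkfb2) was higher and 5 lower. The transporter Slc2a1 had a log2 fold of -0.02 ± 0.16 (SE). Hexokinase 1 (Hk1), a high-affinity glucose kinase that beta cells normally hold low, had -0.35 ± 0.20, with 3 of 5 cafeteria arrays below every standard one. Pfkfb2, which makes the activator of phosphofructokinase, had 0.13 ± 0.19. None passed in limma (lowest adjusted p = 0.859).

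Sodium and other depolarising channels had 8 higher and 5 lower of 13, among them Scn2a at -0.36 ± 0.23 (SE), Scn9a at -0.22 ± 0.15 and the chloride channel Ano1 at 0.23 ± 0.19. Ion pumps and intracellular calcium genes had 6 higher and 6 lower of 12. The calcium pump of the endoplasmic reticulum, Atp2a2, had 0.16 ± 0.09, and the inositol trisphosphate receptor Itpr1 had -0.19 ± 0.13. The mitochondrial calcium uniporter Mcu had -0.29 ± 0.18 and the store-operated channel Orai1 -0.26 ± 0.19. None of these 25 genes passed in limma (lowest adjusted p = 0.849).

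**Figure D4:**
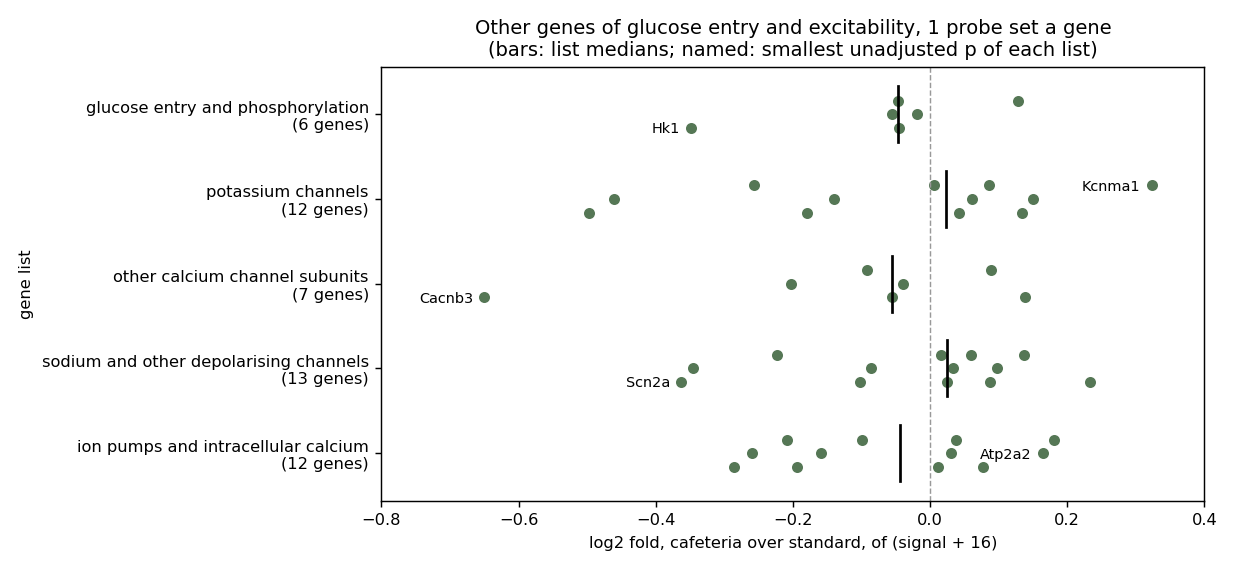
Log2 fold of cafeteria over standard for the 50 tested genes of 5 lists, 1 probe set a gene; points are genes, black bars are list medians and the gene with the smallest unadjusted p of each list is named. The medians lie between -0.06 and 0.02, and Cacnb3 at -0.65 and Kcnma1 at 0.32 are the outermost genes, none of which passed the adjusted test.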

How the data were processed

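Signal intensity values, 1 per probe set and array and linear in scale, were deposited by the authors, who used MAS5 according to the submitters' processing notes; no version or setting is stated in the labels. No further scaling was applied. Arrays have no read depth, and their number limits the precision. After 57 control probe sets were set aside, log2(signal + 16) was fitted in limma 3.58.1 under R 4.3.3 on diet alone, with prior variance following intensity, for 18625 probe sets; p-values were adjusted by Benjamini-Hochberg over these and called below 0.05. Single values were tested by exact two-sided permutation over arrays (Python 3.11.15). The scripts were tested on simulated data. Named genes are the 6 genes, a fixed set of pathway genes (Slc2a1, Hk1, Cacna1a, Cacnb2, Atp2a2 and some not reported here), up to 3 further genes per list by smallest unadjusted p, and the 2 nearest patterns per gene. Genes and lists were chosen with earlier results of these data known. The array set split by beta-actin ratio, that ratio as a covariate, the 3 doubted arrays and the comparisons between probe sets were added after seeing the data; correlations over all 9 arrays between KATP probe sets, and with the ratio, were computed first and set aside for the split.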

Additional observations from a re-analysis of the deposited data

How the results depend on the processing

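In limma none of the 5 genes passed under any alternative tried: pseudocounts of 1 and 64, quantile normalisation, median centring, other filters, no variance trend, array weights, the replicate number as a block, the mean of a gene's probe sets (where Cacna1d fell below the filter), each array left out, and the settings added after seeing the data. Slc2a2 and Abcc8 kept their sign in all 22 alternatives each. The log2 fold of Kcnj11 turned to 0.024 with median centring, 0.0044 with the replicate block, 0.042 with array weights, 0.050 without the 3 doubted arrays and 0.11 within the 6 arrays of lower beta-actin ratio. With the mean of a gene's probe sets, which takes in the dim ones, Cacna1c turned to 0.13, Cacna1d to -0.092 and the difference between them to -0.22, while Kcnj11 moved to -0.18 and the difference of Abcc8 minus Kcnj11 to -0.038, and Cacna1d was -0.046 without the 3 doubted arrays. With each array left out Slc2a2 ranged from 0.027 to 0.14, Abcc8 from -0.33 to -0.11, Kcnj11 from -0.063 to 0.050, Cacna1c from -0.27 to -0.12 and Cacna1d from -0.033 to 0.14. The Kcnj11 probe set 1387698_at had an unadjusted limma p of 0.031 without standard replicate 1 and of 0.035 without cafeteria replicate 1 (adjusted p = 0.542 and 0.549). With the beta-actin ratio as a covariate its unadjusted limma p was 0.0499 (log2 fold -0.27, adjusted p = 0.672). Over the 6 arrays, r of the beta-actin ratio turned from -0.13 to 0.082 with Abcc8 under quantile normalisation. With 1391007_s_at of Kcnj11 it turned from -0.02 to 0.055 under the same setting. Under median centring r turned from 0.11 with 1369782_a_at and 0.03 with 1387698_at to -0.14 with both. None of these values of r passed by exact permutation, before or after the change. The pairs of genes with a correlation past the threshold rose from 0 to 1, Abcc8 with Kcnj11, with the mean of a gene's probe sets; it passed by Pearson's r only (exact permutation, adjusted p = 0.0201, against 0.311 for Spearman's rho), over arrays that fall into separate sets in Abcc8. The cause of these changes was not tested.

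Called probe sets numbered 0, and 0 to 2 with each array left out. The 2, without standard replicate 2, are not named by a single symbol. Those with an unadjusted p under 0.05 numbered 1080, against 582 with the block, 1717 without the filter, 1821 with array weights, 657 without the 3 doubted arrays, 626 of 8530 with the mean of a gene's probe sets, and 711 without standard replicate 3. They rose to 1674 when standard replicate 1 was left out, and to 1655 when cafeteria replicate 1 was. They split into 560 higher and 520 lower, but 812 and 322 under median centring. Same-numbered arrays of the diets did not deviate together (r of -0.38, -0.05, -0.12 and 0.03, none highest with its own number), so the block has no pairing behind it; with it the folds were 0.05 for Slc2a2, -0.11 for Abcc8, -0.19 for Cacna1c and 0.14 for Cacna1d. The planned difference between Slc2a2 and G6pc2 was not run, since no probe set was matched to G6pc2.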
